A study of Gallus gallus with 6 samples.

Results

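The haemoglobin and red cell genes described here are the 7 genes with a row in the deposited table whose symbol or description names a haemoglobin subunit by the wording used to choose them, or whose product is band 3 or the enzyme that opens haem synthesis. They are HBZ, HBM, HBA1, HBE, HBE1, SLC4A1 and ALAS2, 7 of 21062 rows. The choice used names alone and no measured value, but it was made with earlier results of these data known. GATA1, the erythroid master regulator, was named as well, but no row carried its symbol, so it was not analysed here. A beta-type globin, HBBR, whose description puts the word subunit in another place, and HBBA, the adult beta globin gene, fell outside the wording and are given as relatives, with their values named as such.

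The samples were cultures of the posterior part of wild-type chick (Gallus gallus) wing buds, cut at Hamburger-Hamilton stage 20, set in Matrigel and grown for 48 h in medium with serum. SU5402, a small molecule that blocks Fgf receptor signalling, was given at 5 µM in 3 cultures, and its solvent DMSO alone in the other 3. Each library came from a pool of explants, and its poly-A RNA was sequenced in read pairs. The labels call the tissue mesenchyme, but whole explants were lysed, with whatever vessels, blood and ectoderm they held, and no uncultured bud or second time point was used here.

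Haemoglobin is a tetramer of alpha-type and beta-type globin chains, each holding a haem group. In birds the alpha-type genes lie together on one chromosome and the beta-type genes on another, and each cluster is read in a changing pattern as the primitive red cells of the early embryo, which come from the yolk sac, give way to definitive ones. Avian red cells keep their nucleus and, while they mature, go on making globin, haem enzymes, the anion exchanger band 3 and the skeleton that lies under the membrane.

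Between 25849833 and 44261768 reads per library lay on genes. In every sample PRRX1, a limb mesenchyme marker, was present, and the 11 limb mesenchyme markers found summed to between 99391 and 101469 normalised read counts in DMSO and between 116073 and 121941 in SU5402, so the label was borne by its own markers. These markers did not move together. COL1A2 alone went from a mean of 25486 to 45495, and PRRX1 from 17807 to 13528 (limma, log2 −0.40, adjusted p = 0.0083). At an adjusted p below 0.05, with no fold limit, 4 of the 11 were higher and 3 lower, beside 14.4% and 16% of all genes tested. Markers of other cells were present too, and moved: the 16 endothelial genes found summed to between 35876 and 37506 in DMSO and between 8012 and 8673 in SU5402, and the 12 macrophage genes found to between 1026 and 1064 and between 2034 and 2410, with CD86 at 0 in all 6 libraries. Of the 7 thrombocyte genes found (median log2 change 0.37), 2 were called higher (GP9 and F13A1) and 1 lower (ITGB3). Across all genes tested, 6.26% were called higher and 4.54% lower. GP9 had 4, 7 and 4 reads in DMSO and 34, 24 and 38 in SU5402. It passed the filter for testing only through its SU5402 libraries, so it could only be called higher. The 7 genes summed to between 3463 and 3796 in DMSO and between 2089 and 2394 in SU5402. Without ITGB3, the most abundant, the other 6 summed to between 836 and 932 in DMSO and between 1153 and 1397 in SU5402. What part these cells played in the differences given here was not tested.

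Each globin gene with reads was higher in every SU5402 library than in any DMSO library. Of the 6 members with enough reads to be tested, 5 rose (HBZ, HBM, HBA1, HBE and SLC4A1), by between 3.04-fold and 6.57-fold, and none fell. Across the 16324 genes tested, 6.26% were called higher and 4.54% lower, a call being an adjusted p below 0.05 in limma's moderated test with a difference of more than 2-fold. The 3 SU5402 values lay above the 3 DMSO values, with no overlap, for those 5 members, as for 24.2% of all genes tested, and the reverse, seen in 25.6% of genes, occurred in no member. The sixth, ALAS2, was not called, and the seventh, HBE1, had too few reads for the test. In pooled tissue of this kind, a difference in the number of red cells and a difference in globin RNA per red cell cannot be told apart.

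**Figure D1:**
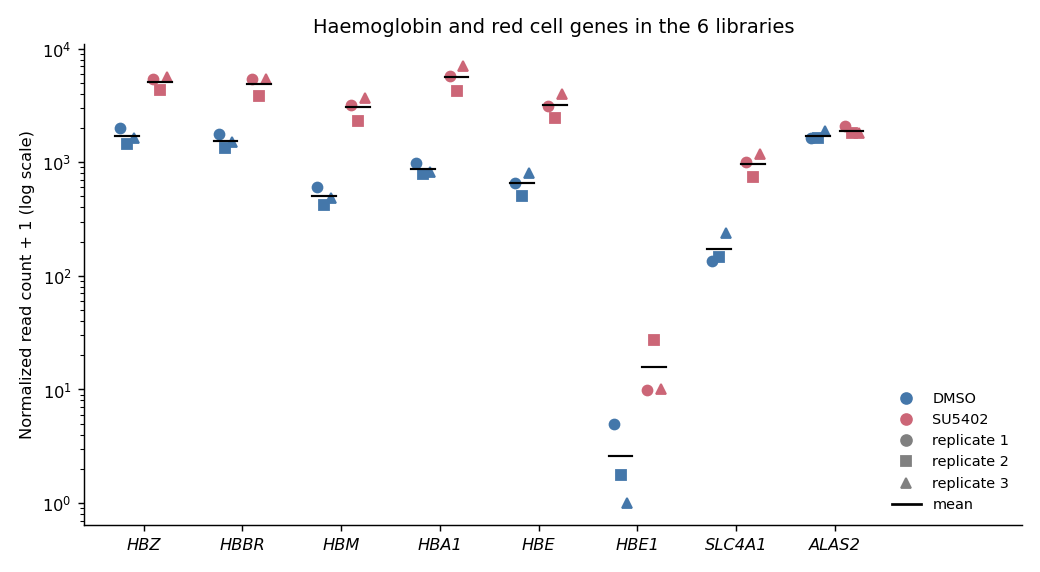
Normalised read counts plus 1 (log scale) of the 7 members and HBBR in the 3 DMSO and the 3 SU5402 libraries; each point is a library and each bar the mean of its group. The SU5402 points lie above the DMSO points for every gene but ALAS2, where they overlap.

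Among the alpha-type genes, HBA1 (ENSGALG00000043234; chromosome 14, 12510348 to 12511196, plus strand, GRCg6a), which encodes the main alpha chain of adult blood and is also read in primitive cells, had the highest fold. It had 991, 787 and 815 normalised read counts in DMSO and 5745, 4237 and 7056 in SU5402. Every treated library exceeded the highest control several times over, and the treated libraries also differed more among themselves. The means were 864 ± 110 and 5679 ± 1411 (SD, n = 3 each), a 6.57-fold difference and a log2 change of 2.69 (SE 0.21, limma's moderated test, Benjamini-Hochberg adjusted p = 0.0010).

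HBM (ENSGALG00000031597; chromosome 14, 12507333 to 12508287, plus strand) is listed by RefSeq as HBAD, the alpha-D chain of the minor avian haemoglobin. Its counts were 606, 416 and 485 in DMSO and 3187, 2309 and 3698 in SU5402. Again the lowest treated library stood well above the highest control. The mean went from 503 ± 96.5 to 3065 ± 703, 6.10-fold, with a log2 change of 2.60 (SE 0.22, adjusted p = 0.0014).

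HBZ (ENSGALG00000023740; chromosome 14, 12503627 to 12505300, plus strand) encodes the embryonic alpha-type chain, called pi in birds, that primitive red cells make. It was the most abundant alpha-type gene of the DMSO cultures, with 1986, 1433 and 1645 counts, and reached 5374, 4334 and 5680 in SU5402. The groups did not overlap, but the step between them was smaller than for the other alpha-type genes. From 1688 ± 279 to 5129 ± 706, the difference was 3.04-fold, a log2 change of 1.61 (SE 0.16, adjusted p = 0.0022). Against a null of a 2-fold change, rather than of no change, HBZ did not pass (limma treat, adjusted p = 0.15).

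On the beta side, HBE (ENSGALG00000035309; chromosome 1, 197275578 to 197277208, minus strand), an embryonic epsilon-type gene, had 654, 502 and 798 counts in DMSO and 3130.4, 2448 and 3952 in SU5402. The treated libraries all lay above the controls. Its mean changed from 651 ± 148 to 3177 ± 753, 4.88-fold, a log2 change of 2.28 (SE 0.24, adjusted p = 0.0026).

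HBBR (ENSGALG00000017347; chromosome 1, 197288212 to 197289402, minus strand), not a member, encodes rho, the main embryonic beta-type chain of the chick. With 1757, 1325 and 1498 counts in DMSO and 5369, 3854 and 5431 in SU5402, it resembled HBZ in both level and change. The groups were well apart. The means were 1527 ± 218 and 4884 ± 893, 3.20-fold, a log2 change of 1.67 (SE 0.18, adjusted p = 0.0026), and HBBR likewise did not pass against a null of 2-fold (adjusted p = 0.15).

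HBE1 (ENSGALG00000028273; chromosome 1, 197283325 to 197284551, minus strand), for which RefSeq gives the synonym HBBH, was close to silent. It took 3, 1 and 0 reads in the DMSO libraries and 8, 30 and 10 in those with SU5402. Its treated libraries were the higher ones here too, with replicate 2, the lowest in the other globin genes with reads, the highest. As normalised counts these are 3.97, 0.765 and 0 against 8.95, 26.3 and 9.14, and with the controls set to 3 reads each the treated mean was at least 4.68-fold higher. Near-identical globin genes can trade reads, and at this depth HBE1 counts could come from its neighbours, which was not tested. HBBA had no reads in any library, but a second gene is annotated on the opposite strand over it, and the sources used here do not say whether counting used strand, so its 0 cannot be read as absence.

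Summed over the 6 haemoglobin genes with reads (HBBR included), globin transcripts took 175, 132 and 154 of every 1000000 reads in the DMSO libraries, with 95% Wilson intervals of 170 to 180, 129 to 135 and 150 to 159. In SU5402 they took 694, 526 and 783 per 1000000, with intervals of 684 to 703, 519 to 533 and 774 to 792. Counting error, the only error these intervals cover, was thus far smaller than the spread between libraries. The SU5402 libraries spread widely, from 526 to 783, but the lowest of them stood above the highest DMSO library, at 175. The means were 154 ± 21.7 and 668 ± 131, 4.34-fold higher in SU5402, a difference of 2.11 on the log2 scale (SE 0.21). An exact permutation test over the 6 libraries gave p = 0.1, two-sided, the smallest that 3 against 3 allows. The members alone gave 109 ± 15.6 and 519 ± 106 per 1000000, 4.76-fold.

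Libraries that were high in one globin were mostly high in the others. SU5402 replicate 3 had the most and replicate 2 the least of HBZ, HBM, HBA1, HBE, HBBR and also SLC4A1. In DMSO, replicate 1 led and replicate 2 trailed for HBZ, HBM, HBA1 and HBBR, whereas HBE was highest in replicate 3. SLC4A1 went another way in DMSO, highest in replicate 3 and lowest in replicate 1. The genes were read in the same 6 pools and mostly vary together, so they are not independent measurements of the treatment.

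Levels of different genes can be set beside each other only per length, so the make-up of the globin pool was taken from the FPKM values (normalised reads per kilobase of transcript, scaled alike in all libraries). In DMSO the FPKM of HBBR was 96.9, 73.1 and 82.6 and that of HBZ 88.4, 63.8 and 73.2, the 2 highest levels of the 7 globin genes in each DMSO library. HBA1 followed at 49.4, 39.2 and 40.6, then HBE at 36.3, 27.9 and 44.3, and HBM at 33.1, 22.7 and 26.4. In DMSO, HBE exceeded HBM in every library but HBA1 only in replicate 3, so that the order of HBA1 and HBE was not settled. In SU5402 the FPKM of HBBR was 296, 212 and 299, of HBA1 286, 211 and 352, and of HBZ 239, 193 and 253. HBA1 and HBBR thus stood side by side at the top in SU5402 libraries, within the spread of both, with HBE at 174, 136 and 220 and HBM at 174, 126 and 202 below them.

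The make-up of the alpha-type pool differed between the groups. HBZ held 51.7%, 50.7% and 52.2% of the alpha-type FPKM in DMSO and 34.2%, 36.4% and 31.4% in SU5402, giving means of 51.5% ± 0.738 and 34.0% ± 2.52. The share of HBA1 went the other way, from 29.7% ± 1.32 to 41.5% ± 1.94, and that of HBM from 18.8% ± 0.661 to 24.5% ± 0.683. All 3 shares were apart in the 2 groups (exact permutation p = 0.1 each, n = 3 against 3, the smallest possible). HBZ, the largest of the 3 in each DMSO library, was therefore second to HBA1 in each SU5402 library.

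The beta-type pool differed too. HBBR held 72.6%, 72.3% and 65.1% of the beta-type FPKM in DMSO and 62.9%, 60.7% and 57.6% in SU5402, with means of 70.0% ± 4.27 and 60.4% ± 2.66, and HBE went from 29.9% ± 4.33 to 39.4% ± 2.68. The groups were apart for both genes, though DMSO replicate 3 lay close to the treated range (exact permutation p = 0.1 each, n = 3 against 3). HBE1 never held more than 0.388% of the pool, in SU5402 replicate 2, and its share overlapped between the groups. Both chain types were higher with SU5402. The alpha-type FPKM sum was 146 ± 23.1 in DMSO and 679 ± 139 in SU5402, 4.66-fold, and the beta-type sum 120 ± 17.2 and 447 ± 87.3, 3.71-fold. The ratio of alpha-type to beta-type FPKM was 1.28, 1.24 and 1.11 in DMSO and 1.49, 1.52 and 1.55 in SU5402, a difference of 0.308 (SE 0.0566) with no overlap (exact permutation p = 0.1, n = 3 against 3).

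**Figure D2:**
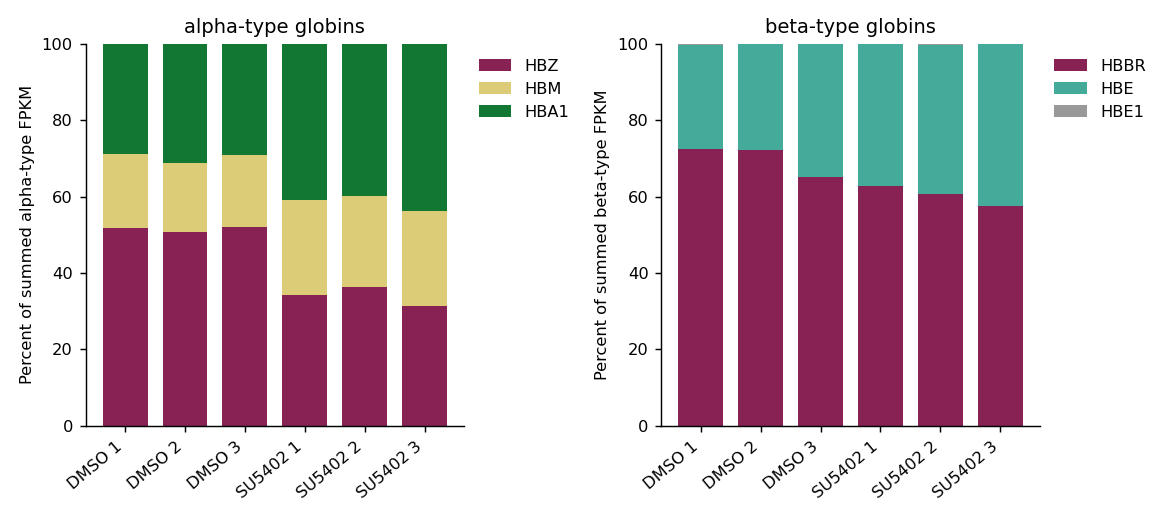
Share (percent) of each alpha-type globin in the summed alpha-type FPKM and of each beta-type globin in the summed beta-type FPKM, a stacked bar per library. HBZ holds between 50.7% and 52.2% of the alpha-type bar in DMSO and between 31.4% and 36.4% in SU5402.

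For a ratio by stage of use, the genes with embryonic symbols in the files, HBZ, HBBR, HBE and HBE1, were set against HBA1 and HBM, which primitive and definitive cells both read. The synonym HBBH marks HBE1 as the hatching gene, which is no embryonic one, and counting it with the later genes gave the same log2 difference to 2 decimals. The embryonic to later FPKM ratio was 2.69, 2.66 and 2.98 in DMSO and 1.54, 1.61 and 1.40 in SU5402. Every treated library had the lower ratio, while both sums were higher. The mean ratio was 2.78 ± 0.178 in DMSO and 1.52 ± 0.109 in SU5402, a log2 difference of −0.88 (SE 0.08, exact permutation p = 0.1, n = 3 against 3). The ratio of HBE to HBA1 alone differed by −0.41 on the log2 scale, and by −0.21 without DMSO replicate 3.

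The size of the change was compared directly between the 5 globin genes with enough reads, as the difference of their log2 changes within libraries, for 10 pairs. HBA1 exceeded HBZ by 1.09 (SE 0.11) and HBBR by 1.02 (SE 0.09), and HBM exceeded them by 0.99 (SE 0.09) and 0.93 (SE 0.08). HBE exceeded HBZ by 0.68 (SE 0.20) and HBBR by 0.61 (SE 0.19), and lay below HBA1 by 0.41 (SE 0.20) and below HBM by 0.31 (SE 0.19). In these 8 pairs the libraries of the groups did not overlap (exact permutation p = 0.1 each, n = 3 against 3, adjusted over the 10 pairs 0.125). HBBR and HBZ differed by 0.06 (SE 0.05) and HBA1 and HBM by 0.10 (SE 0.07), both with overlap (exact permutation p = 0.3). HBA1 and HBM thus changed more than HBBR and HBZ, with no separation inside either pair. HBE lay between them, but its distance from the upper pair rested on DMSO replicate 3, without which it was 0.21 to HBA1 and 0.14 to HBM, and for HBM and HBE the nearest libraries of the groups, at log2 ratios of −0.11 and −0.096, almost touched.

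Along each cluster the change also had an order. From the upstream edge of HBZ, HBM begins at 3.71 kb and HBA1 at 6.72 kb, and the log2 changes were 1.61, 2.60 and 2.69 in that order. In the beta cluster, read from the opposite strand, HBBR lies first and HBE last, at 12.2 kb, with HBE1 and HBBA between them, and the log2 changes of the outer genes were 1.67 and 2.28. With 3 and 2 tested genes per cluster this is a description of position and no test. None of the genes that flank the alpha cluster was called. MPG and NPRL3, the latter carrying the distal enhancers of the alpha genes in mammals and birds, had log2 changes of 0.02 (SE 0.08) and −0.01 (SE 0.09). On the other side TMEM8A had 0.19 (SE 0.07, adjusted p = 0.11), MRPL28 0.17 (SE 0.07, adjusted p = 0.11) and AXIN1, a scaffold of the Wnt pathway, 0.44 (SE 0.06, adjusted p = 0.0068), short of 2-fold.

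**Figure D3:**
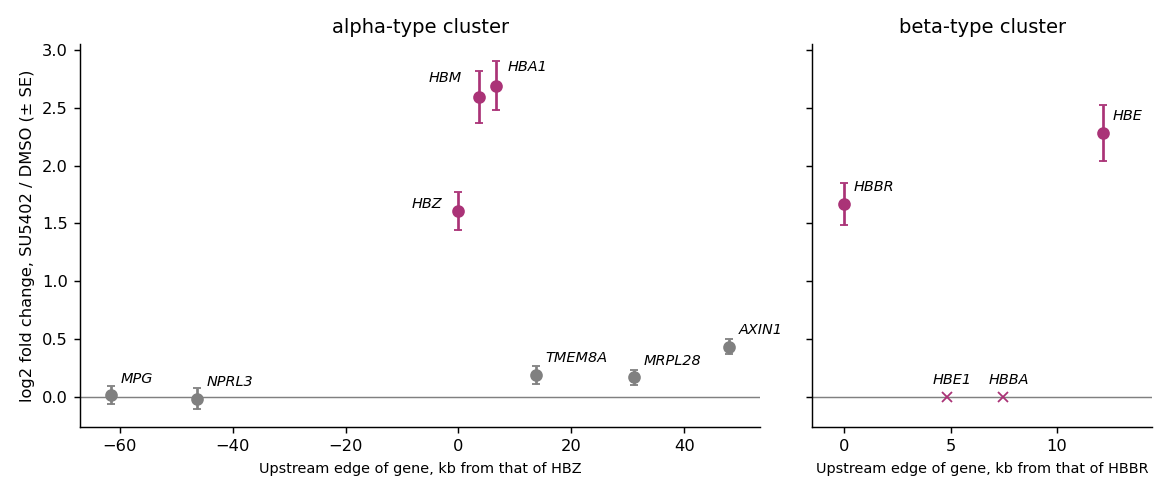
Log2 change (SU5402 against DMSO, with its standard error) of the globin genes and their neighbours against distance in kb from the first globin gene of each cluster. The globins lie between 1.61 and 2.69, and the genes flanking the alpha cluster between −0.01 and 0.44; the crosses on the 0 line mark only the positions of HBE1 and HBBA, which were not tested.

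SLC4A1 (ENSGALG00000039978; chromosome 27, 5419090 to 5434440, plus strand) encodes band 3, which exchanges chloride for bicarbonate across the red cell membrane and anchors its skeleton. Its counts were 135, 146 and 238 in DMSO and 1009.5, 736 and 1173 in SU5402. The lowest treated library held more than the highest control by a wide margin. The mean changed from 173 ± 56.4 to 973 ± 221, 5.62-fold, a log2 change of 2.51 (SE 0.28, adjusted p = 0.0030). In proportion to globin it was 33.5 ± 11.4 normalised counts per 1000 of haemoglobin in DMSO and 44.1 ± 1.34 in SU5402, with overlap (exact permutation p = 0.3, n = 3 against 3). The overlap rested on DMSO replicate 3, without which the groups were apart and differed by 16.5.

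The row named ALAS2 (ENSGALG00000003948; chromosome 12, 3345428 to 3352328, plus strand) stood apart from the other members. ALAS2 is the erythroid form of the enzyme that starts haem synthesis, but RefSeq lists the accession in this row as ALAS1, the form all cells use, so which of them was measured is uncertain. It had 1631, 1627 and 1887 counts in DMSO and 2085, 1809 and 1807 in SU5402. The groups overlapped. The means of 1715 ± 149 and 1900.3 ± 160.1 gave a log2 change of 0.15 (SE 0.10, adjusted p = 0.30).

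Ranked by log2 change among the 1022 genes called higher, HBA1 was number 175, HBM 195, SLC4A1 219, HBE 266, HBBR 497 and HBZ 537. The 5 members that rose were thus not at the head of the genes called higher.

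The other genes of red cells were taken from 6 lists by role, of which 77 genes were tested. Of these, 11 rose and 5 fell, SLC4A1 among the former, beside 6.26% and 4.54% of all genes, and their median log2 change was 0.12 against 0.01 for all genes tested. Most of the 77 were called in neither direction.

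Haem synthesis, the pathway from glycine to haem, had no called gene among 15 tested and a median log2 change of 0.23. Genes with an adjusted p below 0.05 at less than 2-fold included ABCB10, a mitochondrial transporter, at 0.44, TMEM14C, which carries porphyrinogen inward, at 0.35, and FAM210B at −0.48. ABCB10 and TMEM14C did not pass in limma with no filter (adjusted p = 0.055 and 0.053). With single libraries left out, ABCB10 passed only without DMSO replicate 1 (limma, adjusted p = 0.039, otherwise 0.062 to 0.083). TMEM14C passed only without DMSO replicate 3 (0.047) or SU5402 replicate 2 (0.049), and otherwise had 0.066 to 0.077. ABCB10 also did not pass with the replicate block (0.105). Iron uptake and storage had no called gene among 11 either, with a median of 0.08. FTH1, the ferritin heavy chain that stores iron, had 0.80 and TFRC, the transferrin receptor, −0.31, both short of 2-fold. STEAP3, which reduces iron in the erythroid endosome, had a log2 change of 1.35 that did not pass (SE 0.40, adjusted p = 0.057). It passed in edgeR (adjusted p = 0.030), in DESeq2 (0.015), with a filter of 50 (0.036), with limma's intensity trend (0.020) and without DMSO replicate 2 (0.018), so its call turned on the setting.

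In haem breakdown and transport 1 of 9 genes rose. HMOX1, the inducible haem oxygenase that macrophages use to degrade haem, went from 1348 ± 79.2 to 3073 ± 368 normalised counts, a log2 change of 1.18 (SE 0.11, adjusted p = 0.0017). It is not particular to red cells, and the macrophage markers moved in the same direction, with 5 of 11 tested called higher. Which cells held the HMOX1 difference was not tested.

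Of the transcription factors, 4 of 16 tested rose and 1 fell. GFI1B, a repressor that erythroid and thrombocyte precursors need, had 5.30, 22.2 and 18.2 counts in DMSO and 124, 72.7 and 124 in SU5402, a log2 change of 2.90 (SE 0.55, adjusted p = 0.015). Its treated libraries were all higher, at low counts, and the call was lost without SU5402 replicate 1 (adjusted p = 0.051) or 3 (0.052) and with the replicate block (0.056). CBFA2T3, a corepressor that works with TAL1, changed from 657 ± 72.2 to 1531 ± 67.2 (log2 1.23, SE 0.10, adjusted p = 0.0011), and GATA2, a factor of blood progenitors and endothelium, from 371 ± 67.8 to 808 ± 80.5 (log2 1.13, SE 0.16, adjusted p = 0.0058), short of 2-fold without DMSO replicate 3 (log2 1.00). IKZF1, a zinc finger factor of blood cells, had a log2 change of 2.39 (SE 0.60, adjusted p = 0.034) on 1 to 10 reads per DMSO library and 10 to 31 per SU5402 library. It was not called without DMSO replicate 1 or 3 (adjusted p = 0.083 and 0.096) or with no filter (0.057). It passed the filter only through its SU5402 libraries, so it could only be called higher, and with any of them left out it was not tested.

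LMO2, the adaptor between TAL1 and GATA factors, fell from 1211 ± 159 to 454 ± 72.0, a log2 change of −1.42 (SE 0.16, adjusted p = 0.0029). Endothelial cells also use it, and 13 of 16 endothelial markers tested fell, with a median log2 change of −3.19. Whether the fall of LMO2 was linked to theirs was not tested. TAL1 at 0.65 and MYB, of immature blood cells, at 0.81 passed the adjusted p but not 2-fold. In the other direction, LDB1 at −0.42, TCF3 at −0.40, BACH1 at −0.49 and MAFK at −0.80 did the same. At an adjusted p below 0.05 alone, 6 of the 16 factors tested were higher and 5 lower, beside 14.4% and 16% of all genes tested.

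Membrane and skeleton genes split, and which cells held the differences was not tested. Of 16 tested, 4 rose and 3 fell, and the 4 were SLC4A1, ANK1, EPB42 and TSPO2. Means went, for ANK1, the ankyrin that ties band 3 to spectrin, from 25.9 ± 6.22 to 144 ± 27.4 (log2 2.43, SE 0.22, adjusted p = 0.0016), for EPB42, which binds band 3 and ankyrin, from 22.2 ± 6.54 to 59.1 ± 7.01 (log2 1.41, SE 0.24, adjusted p = 0.011), and for TSPO2, a membrane protein of erythroid cells, from 239 ± 8.48 to 1063 ± 133 (log2 2.14, SE 0.11, adjusted p = 3.5e-04). RHAG, the Rh-associated glycoprotein, had 0 reads in the DMSO libraries and 7, 6 and 13 in SU5402, at least 2.63-fold higher with the controls at 3 reads each, and was not tested. The 3 that fell were SLC2A1, STOM and GYPC. SLC2A1, a glucose transporter, went from 15274 ± 699.8 to 4822 ± 359.9 (log2 −1.66, adjusted p = 3.1e-04). STOM, stomatin, had a log2 change of −1.76 (adjusted p = 0.0045). GYPC, glycophorin C, had −1.03 (adjusted p = 0.0016), which was short of 2-fold without DMSO replicate 2 or SU5402 replicate 3. Genes that passed the adjusted p but not 2-fold were EPB41 at −0.67, TMCC2 at −0.31, TMOD1 at 0.41 and MPP1 at 0.60. At an adjusted p below 0.05 alone, 6 of the 16 were higher and 5 lower, beside 14.4% and 16% of all genes tested.

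Among enzymes and other red cell genes, 2 of 10 tested rose and 1 fell. CA2, a carbonic anhydrase abundant in red cells, changed from 931 ± 98.2 to 2976 ± 114 (log2 1.68, SE 0.09, adjusted p = 4.5e-04), and TAC1, which encodes substance P, from 13.4 ± 8.89 to 93.0 ± 21.6 (log2 2.88, SE 0.51, adjusted p = 0.012). TAC1 is not particular to red cells, and it had only 9, 30 and 5 reads in the DMSO libraries. KIT, a receptor of early erythroid precursors and of other cells, fell from 444 ± 67.8 to 68.4 ± 16.6 (log2 −2.69, SE 0.20, adjusted p = 9.2e-04).

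Globins that are not made by red cells were set beside these. None of the 3 tested was called: MB, myoglobin, had a log2 change of −0.99 (adjusted p = 0.19), CYGB, cytoglobin, 0.02 (adjusted p = 0.89) and NGB, neuroglobin, 0.73 (adjusted p = 0.13).

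**Figure D4:**
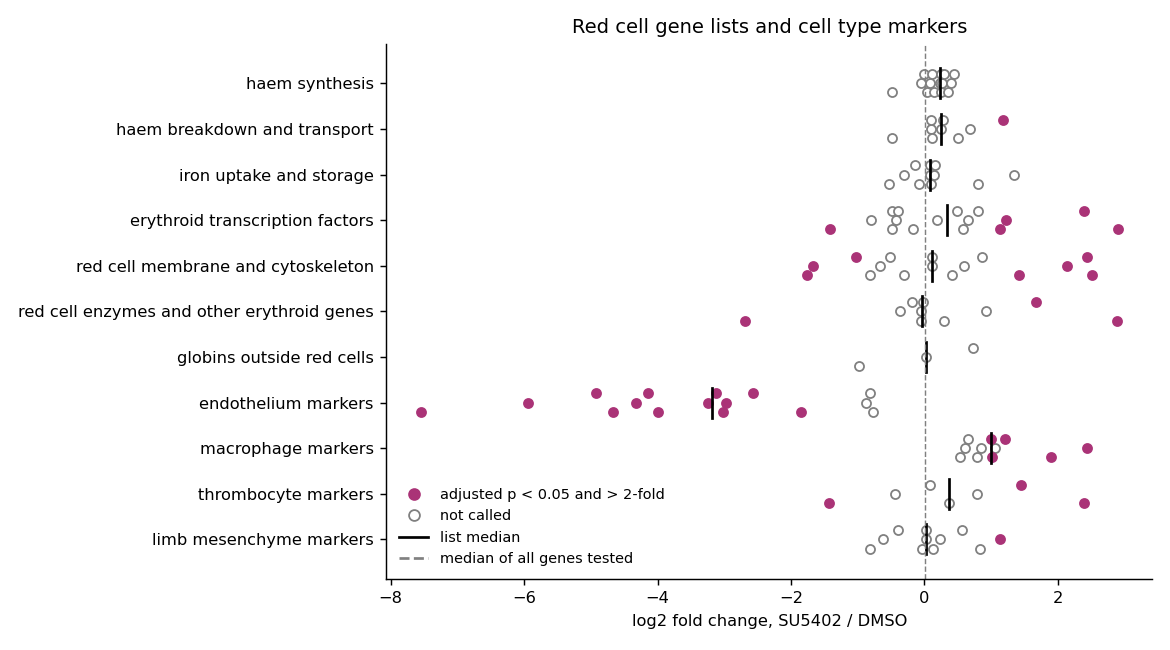
Log2 change (SU5402 against DMSO) of each tested gene in the red cell lists and the lists of other cell types, a point per gene with the list median marked. The medians of the haem synthesis and iron lists are 0.23 and 0.08, with STEAP3 at 1.35 the highest iron gene, and that of the endothelial genes is −3.19.

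The genes whose level followed summed haemoglobin most closely over the 6 libraries were sought among 10538 genes, by Pearson's r of log2 values. They were TNNI1, the slow skeletal troponin I, and YBX3, a nucleic acid binding protein (both r = 0.9999), then CLCA2 (0.999), PDE9A, a cyclic GMP phosphodiesterase (0.998), and NDUFS7, a subunit of respiratory complex I (0.998). Their log2 changes were 1.78, 0.53, 1.01, 1.40 and 0.65, so that YBX3 and NDUFS7 were not called. For comparison, the members gave 0.9997 (HBM), 0.998 (HBZ and HBA1), 0.991 (HBE), 0.972 (SLC4A1) and 0.612 (ALAS2). With 6 libraries in 2 groups, any gene that differs between the groups scores high, and each globin is part of the sum, so these values are a description only.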

How the data were processed

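RNA of 3 DMSO and 3 SU5402 libraries was aligned by the authors with HISAT2 2.0.5 to GRCg6a and counted with featureCounts 1.5.0-p3 (submitters' processing notes). The deposited normalised read counts are a signal per gene, the count divided by a DESeq2 1.20.0 size factor, and the FPKM values the authors deposited equal these counts per kilobase of the listed gene length over 1 total, 33590126, implied for all libraries. Dividing by the value of 1 read returned whole reads for 100% of values (tolerance 0.01). Strand setting of the counting is not given in the sources used here.

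Genes with at least 10 normalised counts in at least 3 libraries were tested in limma 3.58.1 (R 4.3.3) on log2(value + 1), and p-values were adjusted over all 16324 by the Benjamini-Hochberg method. For low genes the log2 change on this scale could be smaller than in edgeR (GP9, 2.39 against 2.62) or larger (GFI1B, 2.90 against 2.74). The edgeR 4.0.16 quasi-likelihood test and DESeq2 1.42.0 on recovered reads, a test against 2-fold, other filters, FPKM, left-out libraries and a replicate block were alternatives. Named were all members, list genes that were called or that show which were not, and the 5 genes, with a symbol and a mean of at least 50, most like summed haemoglobin. The neighbours of the alpha cluster were named by position. Of 163 list genes 128 were found, 7 of them by accession in a RefSeq table (GRCg7b), used for names only. Members and lists were chosen with earlier results of these data known. The haemoglobin share of the members alone, the ratio without HBE (a log2 difference of −1.02) or with HBE1 as a later gene, globin pairs without single libraries and the thrombocyte sum without ITGB3 were chosen after seeing the data. The test was checked on simulated data. P-values measure the spread between libraries, each a pool.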

Additional observations from a re-analysis of the deposited data

How the results depend on the processing

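HBZ, HBM, HBA1, HBE and SLC4A1 were called higher under 15 of 16 alternatives; testing against 2-fold left 4 of them called, without HBZ. Log2 changes ranged from 1.49 to 1.73 for HBZ, 2.45 to 2.79 for HBM, 2.52 to 2.89 for HBA1, 2.11 to 2.46 for HBE and 1.65 to 2.76 for SLC4A1, and HBE and SLC4A1 reached adjusted p-values of up to 0.048 and 0.046. ALAS2 stayed uncalled, at 0.08 to 0.22. Of the 16 red cell list genes called (11 higher, 5 lower), the test against 2-fold kept 6 (4 higher, 2 lower). On log2(FPKM + 1), 7 were higher and 4 lower. There, 2 genes lost their call, and the other uncounted genes did not reach the FPKM filter and were not tested. Leaving out a library counted 13 to 16, with 9 to 12 higher and 4 to 5 lower. Beside the test against 2-fold, GFI1B lost its call under the block and without SU5402 replicate 1 or 3, IKZF1 with no filter and without DMSO replicate 1 or 3, GATA2 in FPKM and without DMSO replicate 3, and GYPC in FPKM and without DMSO replicate 2 or SU5402 replicate 3. STEAP3 gained one in 6 settings. The log2 difference in the haemoglobin share of reads was 1.98 to 2.27 without single libraries, and the embryonic to later ratio −0.92 to −0.82. The ratio of HBE to HBA1 gave −0.41, and −0.52 to −0.21 without single libraries. The replicate block left 5 members and 15 list genes called. Deviations from the group means correlated weakly between same-numbered libraries (0.0388, 0.00321 and 0.0569) and between different-numbered ones (−0.067 to 0.029). The numbers were therefore not taken as pairs, though replicate 2 was lowest in both groups for HBZ, HBM, HBA1, HBE and HBBR. Lowest counts, as in HBE1, RHAG and IKZF1, limit what depth could resolve, and with 3 libraries a group no exact test could pass 0.05.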
